A study of Mus musculus with 3 samples.

Results

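The 7 genes described here are transcription factors of retinal amacrine cells: Tfap2a, Tfap2b, Tfap2c, Pax6, Prdm13, Nhlh2 and Ebf3. They were taken as a fixed list out of the 18545 genes of the matrix and followed through the 21 clusters of the authors' cell table, above all clusters 5, 9 and 10. All 7 were in the matrix. Single-cell RNA sequencing had been performed on retinas of C57BL/6J mice that were kept in the dark for life and were 8 weeks old. The 3 groups were wild-type mice on base chow (WT), rd10 mice on the same chow (rd10-vehicle) and rd10 mice on chow with tamsulosin, metoprolol and bromocriptine for the last month (rd10-TMB). The rd10 line has a point mutation of the rod phosphodiesterase gene Pde6b and loses its photoreceptors, and darkness slows that loss. By the labels a group pooled single retinas of 4 mice, whereas the methods of the study give fewer mice for the rd10 groups. Both rd10 pools were female and the WT pool held both sexes. Each group was therefore 1 library, which leaves no replicate for a test. All intervals below are 95% counting intervals, so a difference beyond them is one between these libraries and not between the conditions.

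Amacrine cells are the inhibitory interneurons of the inner retina, and most release GABA or glycine. AP-2 alpha, beta and gamma, the products of Tfap2a, Tfap2b and Tfap2c, bind DNA as dimers. AP-2 alpha and beta act in the formation of amacrine and horizontal cells and stay on in the adult cells. Pax6, a paired-box and homeodomain factor of eye formation, is also kept in ganglion, horizontal and Müller glial cells. Prdm13 is a PR-domain zinc-finger protein, Nhlh2 a basic helix-loop-helix protein and Ebf3 a member of the early B-cell factor family, and each is known from subsets of inner retinal neurons.

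On GRCm38 (mm10), RefSeq placed Tfap2a on chromosome 13 (40713802 to 40738238) and Tfap2b on chromosome 1 (19208908 to 19238845). Tfap2c (172545678 to 172558622) and Pax6 (105668896 to 105698410) lay on chromosome 2. Prdm13 lay on chromosome 4 (21675865 to 21685963), Nhlh2 on chromosome 3 (102010111 to 102015492) and Ebf3 on chromosome 7 (137193671 to 137322805). Antisense genes overlap Tfap2a, Pax6 and Ebf3 in GENCODE, and of these Pax6os1 had 1685 unique molecular identifiers (UMIs) in the whole matrix.

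The bases before a RefSeq transcript start of 4 of these genes are shown because 3 of them, Prdm13, Nhlh2 and Ebf3, had their highest WT level in cluster 9, whereas Tfap2b was the member with the largest difference between WT and rd10. The sequences run 5′ to 3′ along the gene and stop before the first base that a GENCODE exon covers. Capitals mark CANNTG, the E-box bound by basic helix-loop-helix proteins, and GCCNNNGGC, the palindrome bound by AP-2. Both motifs read the same on either strand. Tfap2c was also highest in cluster 9 and had no match in the promoter table used here. For Tfap2b and Ebf3 the transcript start used lies inside the gene's whole span given above, so those windows are not upstream of the gene's outermost start.
Tfap2b, chr1:19211804-19212053, plus strand: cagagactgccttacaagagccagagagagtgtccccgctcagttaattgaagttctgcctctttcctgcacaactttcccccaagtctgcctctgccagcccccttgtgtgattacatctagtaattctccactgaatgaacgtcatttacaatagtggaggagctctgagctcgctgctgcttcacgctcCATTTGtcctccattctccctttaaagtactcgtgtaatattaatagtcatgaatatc
Prdm13, chr4:21685964-21686213, minus strand: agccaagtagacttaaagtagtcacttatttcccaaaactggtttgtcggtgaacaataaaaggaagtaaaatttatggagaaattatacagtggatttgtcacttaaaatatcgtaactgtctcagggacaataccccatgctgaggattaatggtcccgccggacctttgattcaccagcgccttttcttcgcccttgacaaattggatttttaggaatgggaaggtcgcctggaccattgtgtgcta
Nhlh2, chr3:102009895-102010075, plus strand: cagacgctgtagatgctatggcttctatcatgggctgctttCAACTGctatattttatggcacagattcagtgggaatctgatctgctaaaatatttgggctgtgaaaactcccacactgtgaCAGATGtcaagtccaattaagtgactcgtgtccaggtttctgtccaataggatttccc
Ebf3, chr7:137314446-137314695, minus strand: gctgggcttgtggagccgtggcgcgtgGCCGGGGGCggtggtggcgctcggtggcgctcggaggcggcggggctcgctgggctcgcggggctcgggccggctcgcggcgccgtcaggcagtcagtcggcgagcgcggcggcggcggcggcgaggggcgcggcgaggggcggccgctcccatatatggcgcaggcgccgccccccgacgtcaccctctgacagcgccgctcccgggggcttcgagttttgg
The Tfap2b window held 1 CANNTG, the Nhlh2 window 2 and the Ebf3 window 1 GCCNNNGGC, and the Prdm13 window held neither. Over the 250 bases before the transcript start of 32851 RefSeq promoters, 66.2% held CANNTG and 13.7% held GCCNNNGGC. These are matches of letters and say nothing of binding.

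The libraries held 4478 WT, 5952 rd10-vehicle and 4812 rd10-TMB cells, with a median of 3510, 4812 and 4773 UMIs per cell. Cluster 5 carried 8 of 14 amacrine markers at 2-fold or more over the other cells, among them the GABA synthesis genes Gad1 and Gad2 and the peptide gene Vip, and is called amacrine-like. Cluster 9 carried 4 of 14, including the glycine transporter gene Slc6a9, and is also called amacrine-like. Its leading genes by fold were Prdm13, Nhlh2, Ppp1r17 and Ebf3, and Tfap2c was among its top 10, so the height of those genes in cluster 9 is partly how the cluster was made. Clusters 10 and 6 are given by number, since cluster 10 carried 6 of 10 general bipolar markers beside 2 amacrine ones and cluster 6 carried 6 beside 4. Pairs of libraries shared 8, 10 and 7 cell barcodes.

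Each member had its own map over the WT clusters. Levels are UMIs per 1000000 UMIs (CPM) of the summed cells of a cluster. Because the library is a 3′ tag assay, each transcript gives tags without regard to its length. Tfap2b was highest in the horizontal-like cluster 19, at 1158 CPM (interval 1050 to 1275) from 18 cells. It stood at 905 CPM in cluster 6, 793 in cluster 5, 683 in cluster 10, 314 in cluster 9 and 169 in the ganglion-like cluster 16, and none of these neighbouring intervals overlapped. Tfap2a was at lower levels and in another order, with 129 CPM in cluster 5 and 71.4 in cluster 6. Its level in cluster 9 (41.2 CPM) could not be told apart by its interval from those in cluster 6 and cluster 10 (38.0 CPM).

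Tfap2c was found in fewer cells. In WT it reached 90.6 CPM in cluster 9 and 54.2 CPM in cluster 5, and every other WT cluster had 6 or fewer of its UMIs. Prdm13 was at 144 CPM in cluster 9 and 6.66 CPM in cluster 5, the next in order. Nhlh2 stood at 531 CPM in cluster 9, 94.6 in cluster 5 and 73.4 in cluster 16, and the intervals of the last pair overlapped. Ebf3 had 273 CPM in cluster 9 and 191 CPM in cluster 16, and only 2 UMIs in cluster 5. Of the amacrine-like clusters, Tfap2a and Tfap2b were thus higher in cluster 5 and Tfap2c, Prdm13, Nhlh2 and Ebf3 in cluster 9.

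Pax6 was the broadest of the 7. Its WT level was 858 CPM in cluster 5 and 852 in cluster 9, which did not differ beyond their intervals, and 761 CPM in the Müller glia-like cluster 0. It was lower in clusters 16 (471 CPM) and 19 (454 CPM), which overlapped, and in cluster 10 (296 CPM). The lens-like cluster 17 held cells of the rd10 libraries only, and there Pax6 was at 501 (rd10-vehicle) and 535 CPM (rd10-TMB), with Tfap2a at 120 and 89.2 CPM.

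**Figure D1:**
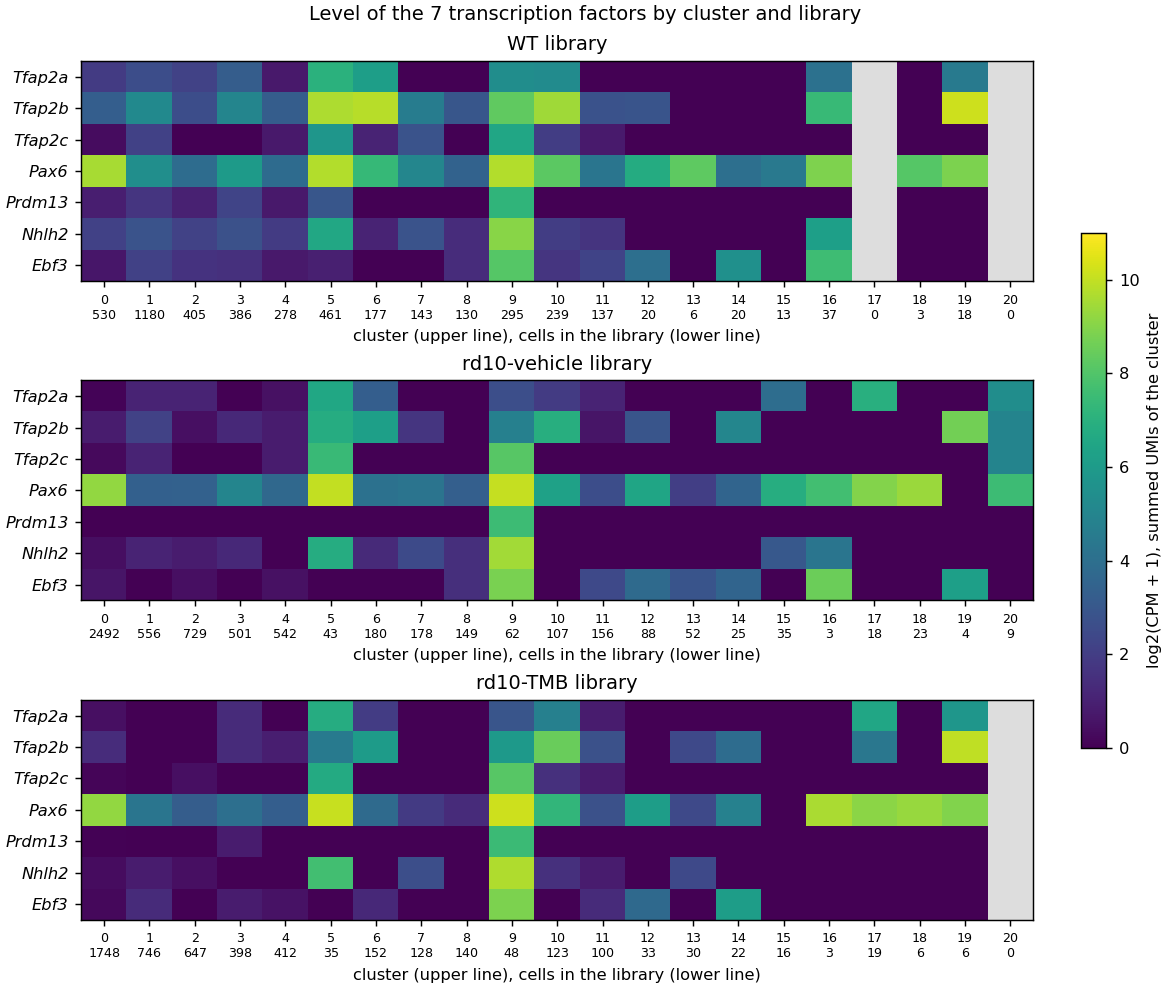
Level of the 7 transcription factors in each of the 21 clusters, 1 panel per library, as log2(CPM + 1) of summed UMIs, with the number of cells of each cluster under its number; grey marks a cluster with no cell in that library. Tfap2b stands out in clusters 5, 6, 9, 10 and 19 of WT, and Prdm13, Nhlh2 and Ebf3 in cluster 9 of all 3 libraries.

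Across 16 clusters with at least 50 cells, the libraries summed, Tfap2a and Tfap2b had like profiles (Pearson r = 0.92), as had Tfap2c and Nhlh2 (r = 0.99) and Nhlh2 and Prdm13 (r = 0.92), while Tfap2a and Ebf3 had not (r = 0.17). The clusters share libraries and depth, and these values describe them only. The limit left out the ganglion-like cluster 16 (43 cells) and the horizontal-like cluster 19 (28 cells), where Tfap2b was highest in WT. The genes most like Tfap2a were Elavl4 (r = 0.95), Slc32a1 (0.94) and Ank1 (0.93), and those most like Tfap2b were Cacng5 (0.95), Elavl4 (0.94) and Slc32a1 (0.93). Slc32a1 is the vesicular transporter of GABA and glycine. For Tfap2c they were Resp18 (0.99), Nefm (0.99) and Nrip3 (0.98), and for Nhlh2 they were Nrip3 (0.98), Nefl (0.98) and Kcnj3 (0.98). Nefl and Nefm were among the top 10 genes of the omitted cluster 16, where Tfap2c had 0 WT UMIs. Prdm13 was closest to A930001A20Rik (0.998), Crabp1 (0.98) and Col12a1 (0.97), and Ebf3 to Necab3 (0.90), Fam131c (0.90) and A930001A20Rik (0.87). Pax6 was closest to Neto2 (0.93), Hmx1 (0.92) and Paupar (0.91), the last a non-coding gene beside Pax6.

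In whole libraries, 6 of the 7 factors were lower in rd10 than in WT and Pax6 was not. For rd10-vehicle over WT, 6 of 7 members with at least 20 UMIs in both libraries together differed 2-fold or more, all lower, against 25% of the 16798 genes compared. For rd10-TMB over WT it was the same 6 genes, all lower, against 19.9% of 16418 genes. The median log2 ratio of the 7 was -3.17 and -2.85, beside -0.20 and -0.21 for all genes compared. The WT library held 4393 Tfap2b UMIs, the rd10-vehicle library 174 and the rd10-TMB library 363, which is 233, 4.70 and 12.4 CPM. Its log2 ratio to WT was -5.62 (-5.86 to -5.41) in rd10-vehicle, while rd10-TMB was at -4.22 (-4.38 to -4.07). Tfap2c was the least lowered in rd10-vehicle, from 11.6 CPM in WT to 2.59 (log2 ratio -2.15) and 2.30 in rd10-TMB (-2.32).

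Pax6 was at 342, 390 and 371 CPM in WT, rd10-vehicle and rd10-TMB. Its source was not the same in the libraries. In WT, clusters 5, 9 and 10 gave 46.7% of its 6461 UMIs and the Müller glia-like cluster gave 39.1%. In rd10-vehicle the Müller glia-like cluster gave 91.9% of 14447 UMIs and clusters 5, 9 and 10 gave 2.60%, and in rd10-TMB the shares were 93.3% and 4.15% of 10838 UMIs. Within the Müller glia-like cells Pax6 was lower in both rd10 libraries, at 598 and 603 CPM beside 761 CPM in WT, with a log2 ratio of -0.35 (-0.41 to -0.29) in rd10-vehicle, while rd10-TMB was at -0.34 (-0.40 to -0.27).

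Between the rd10 libraries, 1 of 7 members differed 2-fold or more, against 3.61% of 16725 genes. It was Tfap2b, higher in rd10-TMB with a log2 ratio of 1.40 (1.14 to 1.67). Cluster 10 gave 51.8% of its UMIs in rd10-TMB and the horizontal-like cluster 19 a further 20.7%. The other members lay between -0.46 for Tfap2a, whose interval held 0, and 0.41 for Nhlh2. Of the 103 Tfap2a UMIs of rd10-vehicle 56.3% lay in the lens-like cluster 17, and clusters 5, 9 and 10 held 16 beside 35 of 59 in rd10-TMB.

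The cells behind these sums were few in rd10. Cluster 5 held 461 WT, 43 rd10-vehicle and 35 rd10-TMB cells, cluster 9 held 295, 62 and 48, and cluster 10 held 239, 107 and 123. Cells of these 3 clusters with a Tfap2b UMI numbered 410 in WT, 17 in rd10-vehicle but 28 in rd10-TMB, or 9.16%, 0.286% and 0.582% of all cells. As shares of all cells these are 32.1 and 15.7 times lower than in WT. For Tfap2c the shares were 2.64%, 0.756% and 0.727%, or 3.49 and 3.62 times fewer, and for Nhlh2 5.45%, 0.991% and 0.956%, or 5.50 and 5.70 times fewer. Prdm13 was 5.64 and 7.12 times and Ebf3 3.86 and 5.12 times less frequent. Tfap2a was 24.3 and 10.7 times and Pax6 9.60 and 8.25 times less frequent. These shares move with the number of other cells in a library, such as the Müller glia-like cells, of which there were 530, 2492 and 1748.

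**Figure D2:**
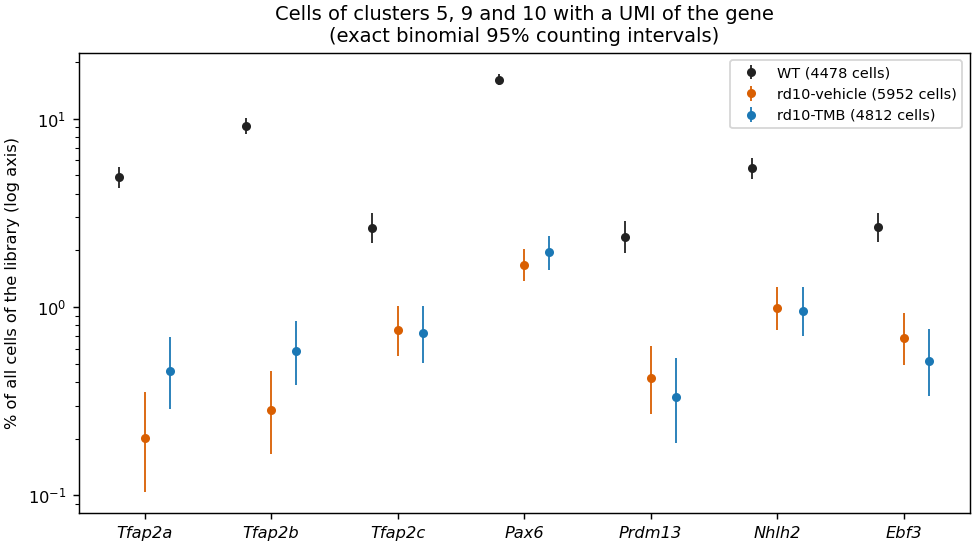
Cells of clusters 5, 9 and 10 with at least 1 UMI of each gene, as a percentage of all cells of the library on a log axis; points are the 3 libraries and bars are exact binomial 95% counting intervals. The gap between WT and both rd10 libraries is widest for Tfap2b (9.16%, 0.286% and 0.582%) and narrowest for Tfap2c (2.64%, 0.756% and 0.727%).

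An AP-2 UMI was rarer in rd10 also at equal depth. After each cell was thinned to 1000 UMIs, 11.5% of the WT cells (10.5% to 12.5%, n = 4130) had an AP-2 UMI, whereas in rd10-vehicle 0.916% (0.687% to 1.20%, n = 5786) and in rd10-TMB 1.02% (0.750% to 1.35%, n = 4609) had one. Unthinned, the shares were 18.0%, 2.42% and 2.68%. Rods should lack these genes, and in the rod-like cluster 3.77%, 0.820% and 0 of 666 thinned cells had an AP-2 UMI, the last of which allows up to 0.450% by a floor of 3 counts and 0.552% by the exact binomial interval. This background level was thus also highest in WT. Within clusters 5, 9 and 10 the thinned share was 36.2%, 16.2% and 18.6%, well above the rod-like level in each library.

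In cluster 5, Tfap2b was far lower in both rd10 libraries while Tfap2a, Pax6 and Nhlh2 were not lower beyond their intervals. Tfap2c was higher, past 2-fold only in rd10-vehicle, and under 2-fold in both once the WT cells were limited by sex. Of the 5 members with at least 20 UMIs, 2 differed 2-fold or more between rd10-vehicle and WT (22.2% of 9668 genes) and 2 between rd10-TMB and WT (19.7% of 9702 genes). Prdm13, with 14 WT UMIs and none in rd10, and Ebf3 had too few. Tfap2b was at 793 CPM (755 to 832) in WT, against 113 (65.6 to 180) in rd10-vehicle and only 21.9 (5.98 to 56.2) in rd10-TMB. Its log2 ratio to WT was -2.81 (-3.60 to -2.13) and -5.12 (-7.05 to -3.82). A Tfap2b UMI was found in 238 of 461 WT cells but in only 3 of 43 and 3 of 35 rd10 cells.

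The difference in Tfap2b between the rd10 libraries in cluster 5 rested on 1 cell. Of the 17 UMIs of rd10-vehicle, 14 came from it. Tfap2b was the 1 member of 5 that differed 2-fold or more for rd10-TMB over rd10-vehicle (5.82% of 3454 genes), with a log2 ratio of -2.09 (-4.39 to -0.74), and without the top cell of each library no member did.

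Tfap2c in cluster 5 was at 54.2 CPM (44.7 to 65.1) in WT, against 172 (112 to 252) in rd10-vehicle and still 104 (62.7 to 163) in rd10-TMB. Its log2 ratio to WT was 1.65 (0.99 to 2.29) and 0.93 (0.16 to 1.65). The rd10 pools were female, and with the WT cells limited to those with an Xist UMI and no Y-linked UMI the ratios were 0.80 and 0.096, both under 2-fold. Its UMIs were found in 15.0% of WT cells but 32.6% (rd10-vehicle) and 34.3% (rd10-TMB) of the rd10 cells. Nhlh2 was at 94.6, 113 and 203 CPM, and passed the 2-fold limit in rd10-TMB over WT at a log2 ratio of 1.09 (0.55 to 1.61), but stood at 0.85 without the cell of each library that had most of its UMIs (9 of 37 in rd10-TMB), at 0.90 with size factors and at 0.99 in cells with a mitochondrial share of at most 10%. Pax6 was at 858, 1013 and 1069 CPM and Tfap2a at 129, 92.7 and 110 CPM, so neither differed 2-fold. Median depth was 2662, 2012 and 4264 UMIs per cell, and the summed level of 9 rod markers was 1157, 503 and 2095 CPM, whose part in these ratios was not tested.

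In cluster 9, Tfap2a and Tfap2b were lower in both rd10 libraries and Tfap2c was higher, while Pax6, Prdm13, Nhlh2 and Ebf3 stayed within 2-fold. All 7 members had at least 20 UMIs in both comparisons with WT, and 3 of 7 passed 2-fold in rd10-vehicle (15.1% of 7865 genes) and 3 of 7 in rd10-TMB (15.8% of 7761 genes). Tfap2b was at 314 CPM (280 to 351) in WT, against 26.6 (8.62 to 62.0) in rd10-vehicle and only 58.5 (26.8 to 111) in rd10-TMB. Its log2 ratio to WT was -3.48 (-5.20 to -2.33) and -2.39 (-3.57 to -1.48). Tfap2a had 40 UMIs in WT and 1 in each rd10 library, a log2 ratio of -2.61 (-8.29 to -0.39) and -2.38 (-8.00 to -0.10).

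Tfap2c showed the opposite order. It was at 90.6 CPM (72.7 to 112) in WT, against 281 (211 to 368) in rd10-vehicle and also 280 (202 to 377) in rd10-TMB, with log2 ratios of 1.62 (1.12 to 2.14) and 1.61 (1.06 to 2.17). Its UMIs were found in 45 of 295 WT, 31 of 62 rd10-vehicle and 22 of 48 rd10-TMB cells. Only 51 of 7865 genes had a higher ratio in rd10-vehicle and 48 of 7761 in rd10-TMB. UMIs per Tfap2c-bearing cell were 1.96, 1.71 and 1.95, and differed less than the shares of cells with it. The summed level of 11 ganglion markers in cluster 9 was 207, 664 and 559 CPM, and that of 10 Müller glia markers 553, 1025 and 910. The sum of 14 amacrine markers was 1395, 1822 and 1775 CPM and that of 9 rod markers 1337, 574 and 1392. The part of these sums in the ratios was not tested.

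Ebf3 and Nhlh2, which lead cluster 9 with Prdm13, were higher in rd10 by less than 2-fold. Ebf3 was at 273, 446 and 449 CPM, with a log2 ratio of 0.71 (0.34 to 1.07) in rd10-vehicle, while rd10-TMB was at 0.71 (0.31 to 1.10). Nhlh2 was at 531, 701 and 819 CPM, with log2 ratios of 0.40 and 0.62. Prdm13 was at 144, 186 and 182 CPM, and both of its intervals held 0. Pax6 was at 852, 1036 and 1151 CPM. Cells are assigned to cluster 9 by such genes, so levels that stay alike between libraries are in part given by the assignment. Between the rd10 libraries none of 5 members differed 2-fold (5.13% of 3472 genes), and their log2 ratios lay between -0.03 for Prdm13 and 0.22 for Nhlh2. 

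**Figure D3:**
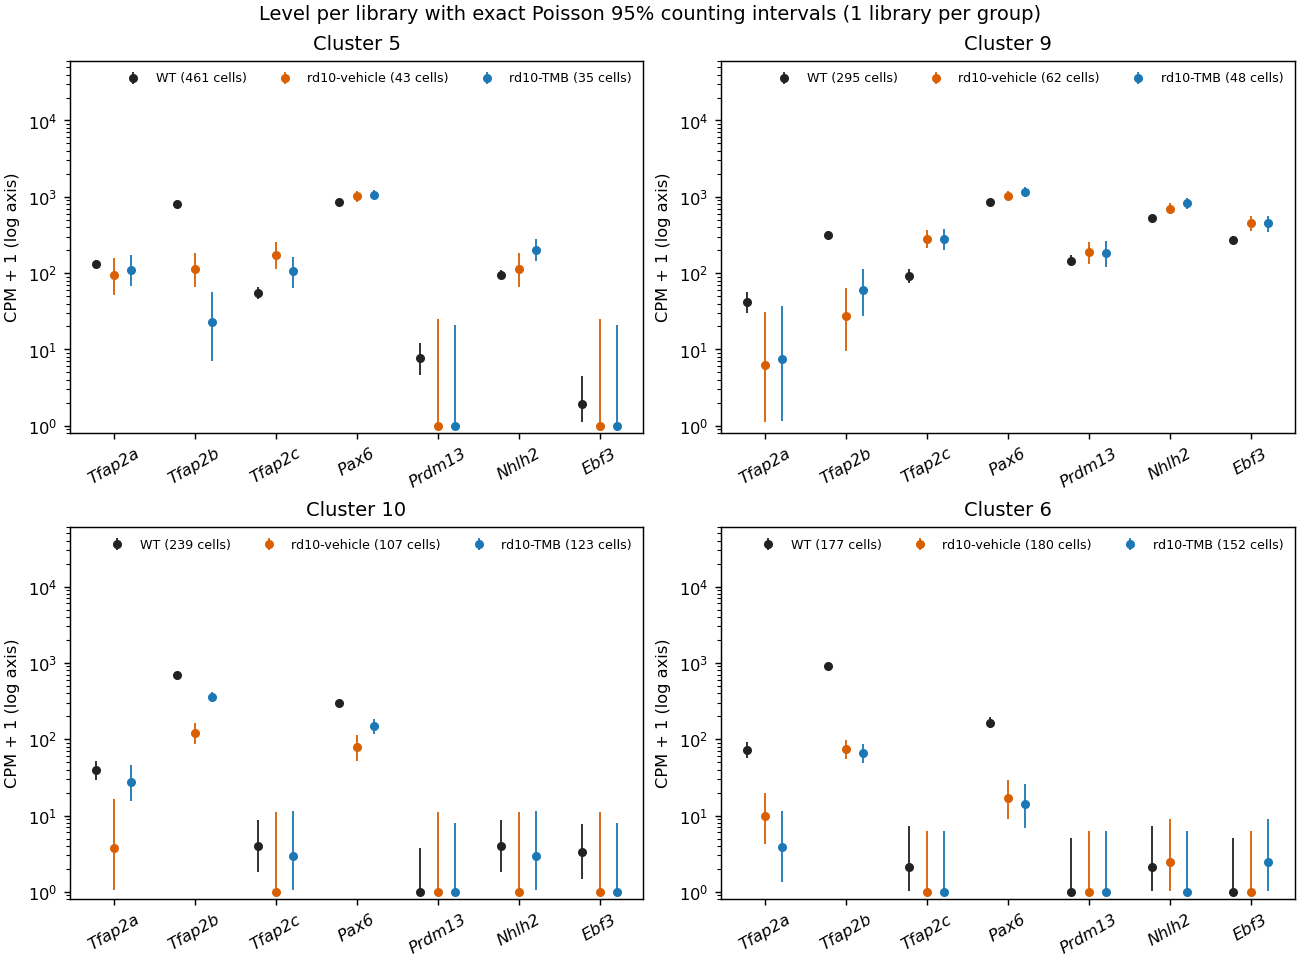
Level of the 7 genes in clusters 5, 9, 10 and 6 as CPM + 1 on a log axis, with exact Poisson 95% counting intervals; points are the 3 libraries. In clusters 5 and 9 the WT point is the highest for Tfap2b and the lowest for Tfap2c, and in clusters 10 and 6 the WT points of Tfap2a, Tfap2b and Pax6 lie above both rd10 points.

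In cluster 10, Tfap2a, Tfap2b and Pax6 were lower in rd10-vehicle, and in rd10-TMB Tfap2b and Pax6 were lower by less than 2-fold. These were the only members with at least 20 UMIs, since Tfap2c, Nhlh2 and Ebf3 had 4 or fewer in each library and Prdm13 had 0, and 3 of 3 passed 2-fold for rd10-vehicle over WT (12.3% of 8314 genes) and 0 of 3 for rd10-TMB over WT (6.88% of 8522 genes). Tfap2b was at 683 CPM (639 to 729) in WT, against 119 (85.9 to 160) in rd10-vehicle but 359 (309 to 414) in rd10-TMB, with log2 ratios to WT of -2.51 (-3.00 to -2.08) and -0.93 (-1.16 to -0.70). Pax6 was at 296, 77.3 and 149 CPM, with log2 ratios of -1.92 (-2.54 to -1.38) and -0.99 (-1.36 to -0.64). Tfap2a had 50, 1 and 14 UMIs, with log2 ratios of -3.31 (-9.12 to -1.24) and -0.49 (-1.48 to 0.37), the second of which held 0. The rd10-TMB ratios of Tfap2b and Pax6 lie near the limit, and without the cell of each library with most UMIs of the gene they were -1.04 and -1.09.

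For rd10-TMB over rd10-vehicle in cluster 10, 1 of 2 members with enough UMIs passed 2-fold (5.03% of 6318 genes). It was Tfap2b, with a log2 ratio of 1.58 (1.11 to 2.11), and Pax6 followed at 0.92 (0.30 to 1.62). Tfap2b UMIs were found in 95 of 239 WT, 10 of 107 rd10-vehicle and 20 of 123 rd10-TMB cells. The largest count in 1 cell was 11 of 43 UMIs in rd10-vehicle and 19 of 188 in rd10-TMB.

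**Figure D4:**
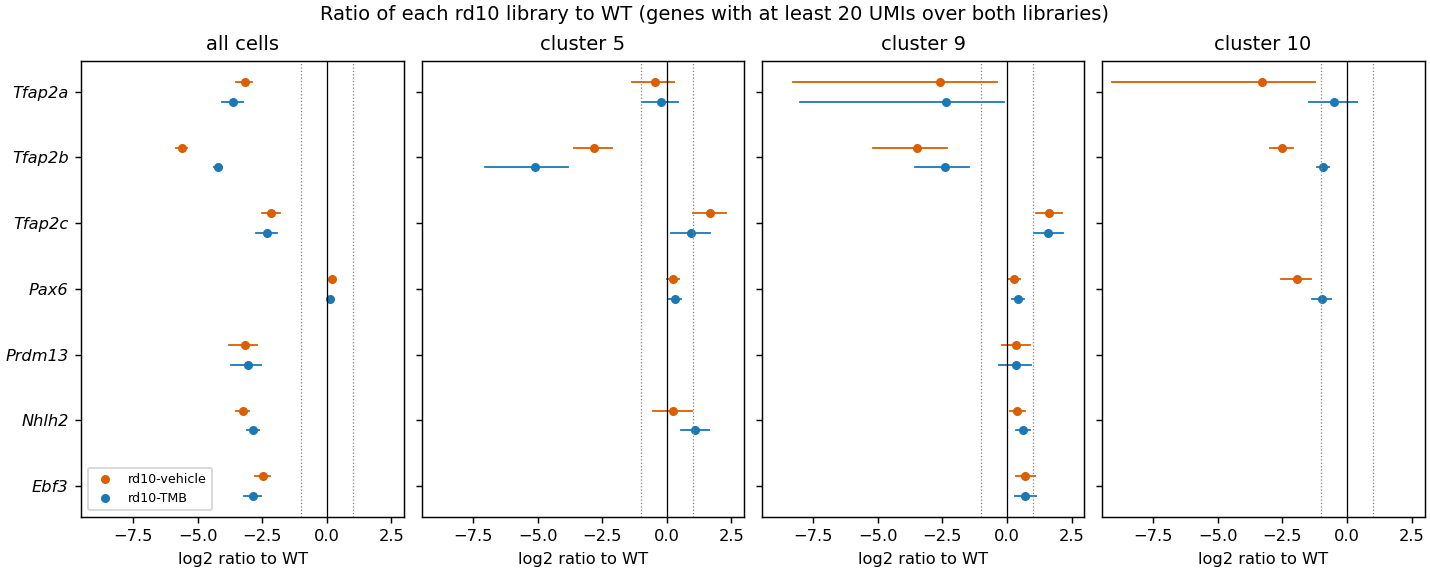
Log2 ratio of each rd10 library to WT in all cells and in clusters 5, 9 and 10, with exact conditional 95% counting intervals; dotted lines mark 2-fold and genes under 20 UMIs are left out. Tfap2b lies left of 0 in all 4 panels, Tfap2c lies left of 0 in all cells and right of 0 in clusters 5 and 9, and Pax6 lies left of 0 in cluster 10 alone of these panels.

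The WT cells of cluster 10 fell into cells with Tfap2b and cells without it. Of the 95 with a Tfap2b UMI, 88 also had Pax6 and 34 had Tfap2a, and all 34 Tfap2a cells had both of the others. Summed, the 95 cells had Pax6 at 542 CPM, Slc6a9 at 1031 and Slc32a1 at 309, and the ON bipolar genes Grm6, Trpm1 and Gng13 at 8.63, 54.7 and 118. The 144 cells without a Tfap2b UMI had Pax6 at 19.4 CPM, Slc6a9 at 4.84 and Slc32a1 at 6.45, with Grm6 at 920, Trpm1 at 2207 and Gng13 at 4428. Cck, the leading gene of the cluster, was at 76.2 CPM in the first and 2764 in the second. Median depth was 7345 and 4431 UMIs per cell.

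Among cluster 10 cells with a UMI of Gad1, Gad2, Slc32a1 or Slc6a9 the libraries were closer in Tfap2b and Pax6. WT had 110 such cells, rd10-vehicle 13 and rd10-TMB 20. A Tfap2b UMI was in 92 of the 110, 9 of the 13 and 20 of the 20, at 1175, 722 and 1412 CPM. Pax6 was at 498, 430 and 556 CPM. The log2 ratio of Tfap2b to WT was then -0.70 (-1.19 to -0.26) in rd10-vehicle, while rd10-TMB was at 0.26 (0.030 to 0.49), beside -2.51 and -0.93 over the whole cluster. Tfap2a had 50 UMIs in the WT cells, 1 in rd10-vehicle and 14 in rd10-TMB. Its ratio in rd10-vehicle was past 2-fold at -1.79, but its interval (-7.26 to 0.61) held 0. Of all genes in these cells 22% and 11.7% passed 2-fold in rd10-vehicle and rd10-TMB over WT. Over the whole cluster the sum of 10 bipolar markers was 5257, 9791 and 8306 CPM and that of 14 amacrine markers 856, 149 and 387 CPM, and their part in the ratios was not tested. These cells were singled out with their values already known.

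Cluster 6 had the same split. Of 177 WT cells, 41 had a Tfap2b UMI, at 19.8 UMIs per such cell, and 36 of them had Pax6. Those 41 cells had Gad1 at 1510 CPM and the C1q-like gene C1ql1 at 2368, and Gng13 at 261, beside 3832 CPM of Gng13 in the other 136. In rd10-vehicle 3 of 180 cells and in rd10-TMB 2 of 152 cells had a Tfap2b UMI, and the level was 905, 72.7 and 64.8 CPM over the 3 libraries. Pax6 was at 163, 16.0 and 13.0 CPM. The sum of 14 amacrine markers in cluster 6 was 1706, 127 and 115 CPM and that of 10 bipolar markers 7302, 9916 and 10307. Their part in these levels was not tested.

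In WT cluster 5 the cells with and without Tfap2b differed in the other AP-2 genes. The 238 with a Tfap2b UMI had a median of 4350 UMIs and the 223 without had 2052, and a cell without a UMI may still carry the transcript. Tfap2a was at 151 CPM in the first and 91.5 in the second. Tfap2c was at 18.1 CPM (11.6 to 26.9) in the first and 116 CPM (93.3 to 143) in the second, and of 69 Tfap2c-bearing cells 20 had Tfap2b. Pax6 (815 and 931 CPM) and Nhlh2 (85.9 and 110 CPM) differed little. Prdm8, a relative of Prdm13, was at 32.4 and 168 CPM, and Bhlhe22, a bHLH factor of amacrine and bipolar cells, at 81.3 and 282 CPM. Vip was at 214 CPM in the cells with Tfap2b.

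Set beside the WT cells without a Tfap2b UMI, Tfap2c in cluster 5 was not higher in rd10 beyond its counting intervals. In cells without a Tfap2b UMI it was at 116 CPM in WT but 175 (rd10-vehicle) and 120 CPM (rd10-TMB) in rd10, with log2 ratios of 0.59 (-0.12 to 1.26) and 0.051 (-0.75 to 0.78). Cluster 9 gave another result. There Tfap2c was at 96.1, 288 and 291 CPM in cells without a Tfap2b UMI, with log2 ratios of 1.56 (1.04 to 2.13) and 1.57 (1.01 to 2.17), close to those over all its cells.

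In WT cluster 9 the cells with Tfap2b had less of the genes that lead the cluster. The 77 with a Tfap2b UMI (median 3530 UMIs) had Prdm13 at 42.2 CPM, Nhlh2 at 274 and Ebf3 at 112, and the 218 without (median 3211 UMIs) had 186, 638 and 339 CPM. Of 115 Ebf3 cells 9 had Tfap2b, and of 95 Prdm13 cells 9 had it. Tfap2c went with Nhlh2, in 42 of its 45 cells, and with Ebf3 in 29. Slc6a9 was within 2-fold in both sets of WT cells (741 and 653 CPM) and was at 679, 1338 and 1340 CPM over the libraries.

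**Figure D5:**
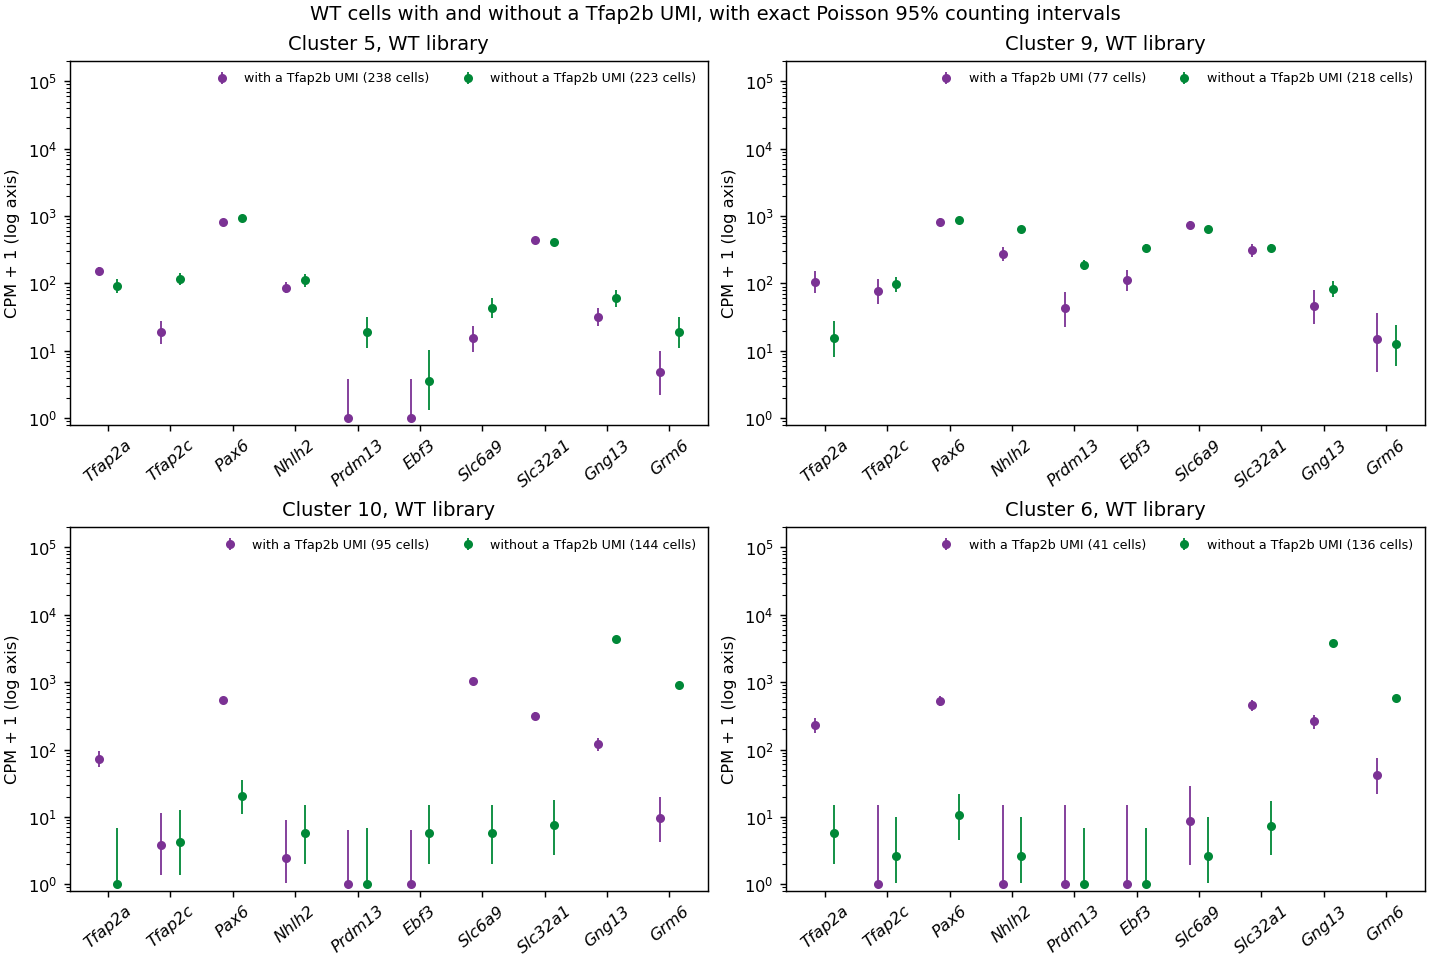
WT cells of clusters 5, 9, 10 and 6 with and without a Tfap2b UMI, as CPM + 1 on a log axis with exact Poisson 95% counting intervals. In clusters 10 and 6 the cells with Tfap2b carry Pax6 and Slc32a1 and the cells without it carry Gng13 and Grm6, in cluster 5 Tfap2c is lower in cells with Tfap2b, and in cluster 9 Prdm13, Nhlh2 and Ebf3 are.

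Over all cells of a library with a UMI of Gad1, Gad2, Slc32a1 or Slc6a9, whatever their cluster, the 7 factors had unlike ratios, but these cells were another mixture in each library. WT had 1248 of them, rd10-vehicle 322 and rd10-TMB 268, of which 62.7%, 33.9% and 33.2% lay in clusters 5, 9 and 10. A single UMI may be free RNA, since 11.8%, 3.24% and 2.95% of the rod-like cells also had one (median depth 1423, 1406 and 1536 UMIs), beside 78.7%, 51.4% and 43.2% in clusters 5, 9 and 10 (median 3817, 3202 and 3937). The ratios below therefore do not compare the same kinds of cell. Of the 7 members 2 passed 2-fold in each comparison with WT, against 27.9% and 19.7% of all genes in these cells. Tfap2b was at 652, 47.9 and 159 CPM, with log2 ratios to WT of -3.76 (-4.05 to -3.50) and -2.04 (-2.21 to -1.87), and Tfap2a, at 68.7 CPM in WT, had ratios of -2.29 and -1.63. Tfap2c was at 32.5, 35.2 and 33.2 CPM, with ratios of 0.11 (-0.27 to 0.48) and 0.030 (-0.40 to 0.45). Prdm13, Nhlh2, Ebf3 and Pax6 had ratios between -0.89 and -0.19.

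Outside these clusters, Tfap2b was also found in the few horizontal-like cells. Cluster 19 held 18, 4 and 6 cells, of which 18, 3 and 5 had a Tfap2b UMI. Its level was 1158 CPM in WT but 398 (199 to 713, 11 UMIs) in rd10-vehicle and 998 (785 to 1251, 75 UMIs) in rd10-TMB, with 28 of the 75 UMIs in 1 cell. Pax6 had 165, 0 and 36 UMIs there. The fibroblast gene Dcn was among the top 10 genes of this cluster. Ebf3 was at 191 CPM in the 37 WT cells of the ganglion-like cluster and had 20 UMIs in 3 rd10-vehicle cells, 19 of them in 1 cell.

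Genes of the same families were counted from a fixed list of 10 relatives, 9 of them in the matrix. In cluster 5, 5 relatives had at least 20 UMIs, of which Prdm8 was 2-fold or more higher in both rd10 libraries, at 82.3, 272 and 208 CPM. Tfap2d had 24, 0 and 0 UMIs, Tfap2e 25, 0 and 1 and Ebf1 22, 0 and 1. Their ratios passed 2-fold downward in rd10-vehicle, and those of Tfap2d and Tfap2e in rd10-TMB, but 0 UMIs in rd10-vehicle allow up to 24.4 CPM, above their WT levels of 10.5 to 11.9 CPM, so a difference was not detectable at this depth. Of all genes 22.2% and 19.7% were called in either direction there. In cells of cluster 5 without a Tfap2b UMI Prdm8 stood at 168, 278 and 228 CPM and was under 2-fold higher, with log2 ratios of 0.72 and 0.44. In cluster 9 the ratios of Nhlh1 and Prdm8 passed 2-fold downward in both rd10 libraries, 2 of 3 with enough UMIs, against 15.1% and 15.8% of all genes called. Prdm8 had 72, 1 and 5 UMIs and Nhlh1 24, 1 and 0, and of these levels only that of Prdm8 in rd10-vehicle had an interval apart from WT. Ebf1, the family member most abundant there, was at 722, 473 and 462 CPM.

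Of 21 other amacrine transcription factors, 18 were in the matrix. In cluster 5, 3 of 12 were lower and 2 higher in rd10-vehicle, and 6 of 13 lower and 2 higher in rd10-TMB, with a median log2 ratio of -0.16 and -0.50, where 22.2% and 19.7% of all genes were called. Bhlhe22 was higher in both, at 155, 510 and 554 CPM, but in cells without a Tfap2b UMI (282, 519 and 627 CPM) it passed 2-fold in rd10-TMB alone. Nr4a2 was lower in both, with 134, 0 and 1 UMIs, but 117 of the 134 lay in cells with a Tfap2b UMI. In the cells without one, 0 of 9 factors were lower and 1 higher in rd10-vehicle, and 2 of 9 lower and 1 higher in rd10-TMB, beside 15.2% and 12.1% of all genes called in those cells. Nr4a2, with 17 WT UMIs there, was below the minimum of 20 UMIs and could not be called. Meis2 was even, at 927, 1086 and 1053 CPM. In cluster 9, 5 of 12 were lower and 0 higher in rd10-vehicle, and 5 of 13 lower and 1 higher in rd10-TMB, beside 15.1% and 15.8% of all genes. Neurod2 was lower in both, at 148, 42.5 and 13.0 CPM. In cells without a Tfap2b UMI it was 4 of 11 and 3 of 11 lower and 0 higher, beside 13.3% and 13% of all genes there. In cluster 10, Neurod2 and Meis2 passed 2-fold downward and Onecut2 upward in both rd10 libraries, of 10 and 11 factors, beside 12.3% and 6.88% of all genes. Neurod2 had 251, 11 and 40 UMIs there, while Meis2 (30, 1 and 3) and Onecut2 (14, 13 and 12) had few, and their intervals in rd10-TMB overlapped those of WT.

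The 22 transmitter and peptide genes were all in the matrix. In cluster 5, 6 of 17 were lower and 0 higher in rd10-vehicle, and 6 of 17 lower and 1 higher in rd10-TMB, where 22.2% and 19.7% of all genes were called in either direction. The ratios of Vip, Tac1, Cck and Slc5a7 passed 2-fold downward in both. Vip had 287, 0 and 0 UMIs and Tac1 434, 14 and 3. Cck had 41, 0 and 0 and Slc5a7 30, 0 and 0, and the 24.4 and 20.2 CPM that 0 UMIs allow in the rd10 libraries lie above their WT levels of 19.5 and 14.3 CPM, so a difference was not detectable at this depth. In cells without a Tfap2b UMI, 5 of 14 were lower in rd10-vehicle and 4 of 14 in rd10-TMB, with 1 higher in each, against 15.2% and 12.1% of all genes. Gad2 and Slc32a1 were within 2-fold. In cluster 9, 6 of 12 were lower in each rd10 library, the same 6 in both, among them Gad1, Gad2 and Cck, with Elavl4 higher in rd10-TMB, where 15.1% and 15.8% of all genes were called. In cells without a Tfap2b UMI 3 of 9 were lower in each (13.3% and 13% of all genes called), Gad2 and Cck among them, and Slc6a9 was higher in both. Gad1, with 17 UMIs in these WT cells and 0 in rd10, was below the minimum of 20 UMIs there. The median log2 ratio was -0.61 and -1.14 over the 12 genes of the whole cluster. Over these 9 it was 0.027 and -0.25, so the medians do not cover the same genes. In cluster 10, 8 of 9 were lower in rd10-vehicle and 7 of 9 in rd10-TMB with Cck higher, against 12.3% and 6.88% of all genes called, and Slc6a9 was at 548, 102 and 263 CPM. For rd10-TMB over rd10-vehicle 3 of 8 were higher there, Slc32a1, Slc6a9 and C1ql1, against 5.03% of all genes called. Among cluster 10 cells with a UMI of Gad1, Gad2, Slc32a1 or Slc6a9 (110, 13 and 20 cells) fewer genes were called. Gad1 was lower and Cck higher in rd10-vehicle, and Gad1 and Cck lower in rd10-TMB, of 9 each. Of all genes 22% and 11.7% were called in these cells. No list gene with enough UMIs was higher there in rd10-TMB over rd10-vehicle. These cells were picked by genes of this list. The comparisons with WT share the WT library, and the rd10 libraries appear in 2 comparisons each.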

How the data were processed

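Per the labels and the study's methods, the authors aligned 10x reads to mm10 with Cell Ranger 6.0.1 at default settings, combined libraries with Cumulus 1.5.0, removed doublets with Scrublet 0.2.1, kept cells with at least 500 genes and clustered them in Seurat 3.2.2 after Harmony. The deposited matrix holds the natural log of 1 plus UMIs per 10000 UMIs of the cell, and the deposited cell table holds UMI counts and gene counts per cell with library and cluster. Whole UMI counts were recovered from both for all 15242 cells: of 32620606 values, 0 missed a whole number by more than 0.001. UMIs were summed per library and cluster with Python 3.11.15 and scipy 1.17.1, scaled to 1000000 (CPM) and compared as log2 ratios with a pseudocount of 1 UMI, for genes with at least 20 UMIs over both libraries. Called means 2-fold or more by that ratio. Poisson, binomial and conditional ratio intervals are exact, at 95%, and cover counting error only. The ratio code was tested on simulated data. The members and gene lists were chosen with earlier results of these data known. The rule for named genes took all members and, for each, the 3 genes most alike over clusters in log2(CPM + 10), among genes with at least 200 UMIs. From the lists, genes past 2-fold could be named, and other list genes were chosen after their values were seen, as were the splits of cells by a Tfap2b or transmitter gene UMI. Sequences are from RefSeq on GRCm38, which is mm10. Alternatives covered scaling, cell filters, thinning, count minimum, fold limit and sex of the WT cells. The values of 1 transmitter gene are not reported here.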

Additional observations from a re-analysis of the deposited data

Results flagged for a closer look

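7 ratios went one way in 1 cluster and the other way in another under the same contrast, with both counting intervals clear of 0. With 1 library per group the difference between clusters was not tested. The log2 ratio of Pax6 for rd10-TMB over WT was 0.32 in cluster 5 and 0.43 in cluster 9 but -0.99 in cluster 10. For rd10-vehicle over WT, Pax6 was at 0.28 in cluster 9 and -1.92 in cluster 10. The log2 ratio of Tfap2b for rd10-TMB over rd10-vehicle was 1.58 in cluster 10 and -2.09 in cluster 5, the latter from 4 and 17 UMIs.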

How the results depend on the processing

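No paired analysis was possible because each group was 1 library, and no replicate could be left out. Of 682 values of the 63 member ratios under alternatives, 589 moved by less than their counting interval, 90 moved further and 3 reversed. In all, 35 values had the other sign than reported, and only those 3 belonged to a ratio past 2-fold. Of 298 values of the 28 ratios past 2-fold, 22 were under it. The reversed ones were Tfap2c over all cells when only cells with a UMI of Gad1, Gad2, Slc32a1 or Slc6a9 were summed (log2 ratio 0.11 in rd10-vehicle and 0.030 in rd10-TMB over WT) and Tfap2b for rd10-TMB over rd10-vehicle in cluster 5 after thinning (0.24, with 1 UMI in each). The cause was not tested. Scaling by size factors moved all ratios of rd10-vehicle and rd10-TMB to WT by 0.22 and 0.21 over all cells and by -0.16 and -0.19 in cluster 5. Cells without a Tfap2b UMI hold no Tfap2b by construction, so the loss of its own call there says nothing of its stability. It is the only call lost there between the rd10 libraries. Counts of members past 2-fold changed as follows. Over all cells, 6 became 2 in both comparisons with WT among cells with a transmitter gene UMI (27.9% and 19.7% of all genes called there), and 1 became 0 between the rd10 libraries among cells without a Tfap2b UMI. In cluster 5 for rd10-vehicle over WT, 2 became 1 (Tfap2c lost) when the WT cells were limited to those with Xist and without Y-linked UMIs and 0 in cells without a Tfap2b UMI. For rd10-TMB over WT, 2 became 1 (Nhlh2 lost) with size factors, with a mitochondrial share of at most 10% or without the top cell, and 0 in cells without a Tfap2b UMI. Between the rd10 libraries 1 became 0 under cells with at least 1000 genes, the mitochondrial limit, leaving out the deepest 5% of cells, thinning, a minimum of 50 UMIs, leaving out the top cell, and cells without a Tfap2b UMI, and 3 at a limit of 1.5-fold. In cluster 9, 3 became 1 in both comparisons with WT in cells without a Tfap2b UMI, where Tfap2a was below the minimum of 20 UMIs with 10, 1 and 0, and 5 for rd10-TMB at 1.5-fold. In cluster 10 for rd10-vehicle over WT, 3 became 6 with a minimum of 3 UMIs, 1 among transmitter cells and 0 without a Tfap2b UMI, where Tfap2a and Pax6 were below the minimum as well. For rd10-TMB over WT, 0 became 1 with size factors, thinning or a minimum of 3 UMIs, and 2 without the deepest 5% of cells, at 1.5-fold or without the top cell. Between the rd10 libraries 1 became 2 without the deepest 5%, at 3 UMIs, at 1.5-fold or without the top cell, and 0 among transmitter cells or cells without a Tfap2b UMI. The share of cells with an AP-2 UMI in WT, rd10-vehicle and rd10-TMB was 18.0%, 2.42% and 2.68% unthinned, 4.89%, 0.138% and 0.369% with at least 2 UMIs, and 16.2%, 1.59% and 2.08% outside the Müller glia-like and rod-like clusters. Thinned to 2000 UMIs it was 15.8%, 1.09% and 1.40%. Leaving out the top cell, the transmitter cells and the cells without a Tfap2b UMI were chosen after seeing the data. Clusters of 35 to 62 rd10 cells limit the precision.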
